A study of Mus musculus with 24 samples.

Results

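The enzymes that make, use and recycle glutathione, together with the other antioxidant enzymes and their regulators, were followed in the brains of mice fed 4 diets. The 36 genes were taken by name, and each gene was read from the probe set, a group of oligonucleotides on the array, that is annotated to that gene only and has the highest mean over all arrays. Such a probe set was found for 33 of the 36 genes. Prdx1, Prdx5 and Prdx6, 3 peroxiredoxins, had none and were not analysed here. All 33 lay above the limit on the mean level (a log2 level of 4.07), among 13839 features tested.

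The mice were females of the laboratory strain NMR-1, aged 8 weeks when the 2 weeks of feeding began. The 4 groups of 6 mice ate McDonald's fast food only, cooked cafeteria food of the institute, a chimpanzee diet of vegetables, fruit and yogurt, or the mouse pellets on which they had been raised. No genotype or drug is named for any group, littermates were spread over them, and the fast food mice gained more weight than the others over this time. RNA from the right cerebral hemisphere was processed in 2 batches of 3 mice per diet, with 1 Affymetrix mouse genome array per mouse, which gave 24 arrays. The cafeteria and fast food diets together are called the human diets. The methods leave out 1 pellet array that is not named, and all 6 were kept here.

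Glutathione is a short peptide made from glutamate, cysteine and glycine. Glutathione peroxidases spend it to reduce peroxides, transferases attach it to reactive compounds, and glutathione reductase restores it with NADPH. Superoxide dismutases and catalase act before it on superoxide and hydrogen peroxide, and peroxiredoxins with thioredoxin form a parallel peroxide-reducing system. In brain, astrocytes are known to hold much of the machinery and to supply neurons with glutathione precursors. Many of these genes are known targets of NRF2, the transcription factor encoded by Nfe2l2, which KEAP1 keeps low in unstressed cells.

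NRF2 binds as a heterodimer with small MAF proteins to the antioxidant response element, whose core is searched here as TGACNNNGC on both strands. The promoter windows of RefSeq (build GRCm38.p6), 250 bases before to 50 after the start of a gene, were given for 30 of the 36 genes. A core lay in the window of 8 of these 30 (26.7%), beside 14.0% of 27025 genes with a window. Some genes have several windows, and counted by window a core lay in 8 of 40, beside 12.4% of all 32851 windows. The stretches of 6 genes that were measured and whose core lies before the start are shown, read along the gene, to set their cores side by side. Capitals mark the core, which reads as GCNNNGTCA where it lies on the opposite strand.
Gclm: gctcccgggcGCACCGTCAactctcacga
Gstm5: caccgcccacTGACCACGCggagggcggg
Mgst1: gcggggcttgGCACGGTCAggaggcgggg
Nfe2l2: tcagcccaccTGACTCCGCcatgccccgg
Sod1: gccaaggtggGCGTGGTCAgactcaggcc
Txnrd1: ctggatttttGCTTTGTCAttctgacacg

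They lie at chr3:122245413-122245441 (Gclm), chr3:107895802-107895830 (Gstm5), chr6:138140461-138140489 (Mgst1), chr2:75704885-75704913 (Nfe2l2, on the minus strand), chr16:90220696-90220724 (Sod1) and chr10:82859104-82859132 (Txnrd1), upstream of the annotated start. Prdx1 and Srxn1 also held a core, that of Srxn1 after the start. A match to these letters is a description of the sequence and shows no binding.

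The arrays were not alike, and this bears on every value below. The spread of log2 values over an array (SD) ran from 1.58 to 2.06, although the values had been quantile normalized by the authors. The lowest spread was in the array labelled pellet batch 2 replicate 1, whose median correlation with the others was 0.893, against 0.980 to 0.993 for the other 23 arrays. Of the 33 genes, 23 had their lowest level of all 24 arrays in that array and 6 had their highest there. This was not counted over all features, so that it does not set the 33 genes apart. The pellet arrays also ran against their batch labels. On pellets the probe set for 18S ribosomal RNA read 5.92 to 6.42 log2 in labelled batch 2, against 4.96 to 5.51 in labelled batch 1, whereas on the other 3 diets it read 4.88 to 5.15 in batch 2, against 5.87 to 6.58 in batch 1. The labelled batch is therefore named with each value from pellets. Of the brain markers with a probe set, 8 of 8 of neurons and 9 of 9 of astrocytes lay above the limit on the mean level, against 2 of 5 of liver and 1 of 4 of red blood cells, and 1 of the 2 liver markers, Ttr, is also a choroid plexus marker. Since each array holds RNA of a whole hemisphere, fewer cells of a type and less RNA per cell cannot be told apart.

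The probe sets of the 33 genes had mean log2 levels between 4.09 and 10.26. The brightest were those of Gstp1 at 10.26, Gpx4 at 10.10 and Prdx2 at 9.96, and the dimmest were those of Nqo1 at 4.09, Hmox1 at 4.12 and Gpx2 at 4.46. Gstp1 joins glutathione to reactive compounds, Gpx4 reduces peroxides within membranes, and Prdx2 is a cytosolic peroxiredoxin. Nqo1, a quinone reductase, and Hmox1, the inducible heme oxygenase, lay close to the limit of 4.07, and Gpx2 is a peroxidase known from the gut. Different probe sets bind with different strength, so that these levels describe the probe sets and do not rank the amounts of transcript. The genes also differed in how much they varied between mice. On the 3 diets other than pellets, the SD within a diet and batch had a median of 0.21 over the 33 genes, was smallest for Gclc at 0.09 and was largest for Gpx3 at 0.62.

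Whether diet changes the expression of antioxidant genes in brain was tested first over all 4 diets. None of the 33 genes passed the test (limma's F test, adjusted p under 0.05), and of all features 0.0434% did. At an unadjusted p under 0.05, 1 of the 33, Sod3, was counted, against 5.34% of all features. The methods' two-way analysis also called 0 of the 33, after removing 23 of them for an interaction between diet and batch. Among those removed, Txn2 had a diet p of 0.0069 in that analysis, under its limit of 0.01. The share of all features that it removed is not given here, so that the 23 do not set these genes apart. With each of the 24 arrays left out in turn, 0 of the 33 passed in every case.

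The comparison of the human diets with the chimpanzee diet asks whether human food changes brain expression relative to the diet of a close relative. None of the 33 genes passed, beside 0% of all features, and the methods' two-way analysis also called 0. The median difference of the 33 genes was 0.03 log2, beside 0.01 over all features. The 95% interval lay within 0.5 log2 of zero on both sides for 29 of the 33. The exceptions were Gpx3, Sod1, Cat and Mgst1.

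Gpx3, which encodes a glutathione peroxidase secreted into the extracellular fluid, was the 1 gene with an unadjusted p under 0.05 in this comparison, against 2% of all features. Its log2 levels had a lowest, median and highest value of 6.33, 6.86 and 7.68 in fast food mice and of 6.16, 7.25 and 7.73 in cafeteria mice. They were 5.18, 6.70 and 7.11 in chimpanzee-diet mice, and 5.50, 6.71 and 7.06 in pellet mice. The groups overlapped, and the lowest level of all, 5.18, was in chimpanzee batch 2 replicate 2. The difference of human diets minus chimpanzee was 0.63 ± 0.26 log2 (SE) and did not pass (adjusted p = 1). The difference was 0.70 within batch 2 and 0.56 within batch 1. Without chimpanzee batch 2 replicate 2 it was 0.42, and with limma's array weights, which count arrays that deviate more from the fit less, it was 0.37.

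Gpx3 also had the largest difference between the cafeteria and chimpanzee diets, 0.71 ± 0.30 log2 (SE, adjusted p = 1), and between the cafeteria and pellet diets, 0.67 ± 0.30 (SE, adjusted p = 0.59). Against pellets, labelled batch 2 gave 0.86 and labelled batch 1 gave 0.47, and the difference was 0.52 without pellet batch 2 replicate 1 and 0.31 with array weights. Fast food and pellets differed in Gpx3 by 0.50 (adjusted p = 0.27), with 1.03 within labelled batch 2 and −0.03 within labelled batch 1, and by 0.08 with array weights. The choroid plexus markers had positive differences of human diets minus chimpanzee in 5 of 5 genes, with a median of 0.17 log2, and their summed signal was 11.42 to 12.62 log2 in fast food mice, 11.46 to 12.69 in cafeteria mice and 11.21 to 12.65 in chimpanzee-diet mice. Those of oligodendrocytes had positive differences in 7 of 7 genes, with a median of 0.21, and 0 genes of either list passed. The part of these cell types in the Gpx3 values was not tested.

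**Figure D1:**
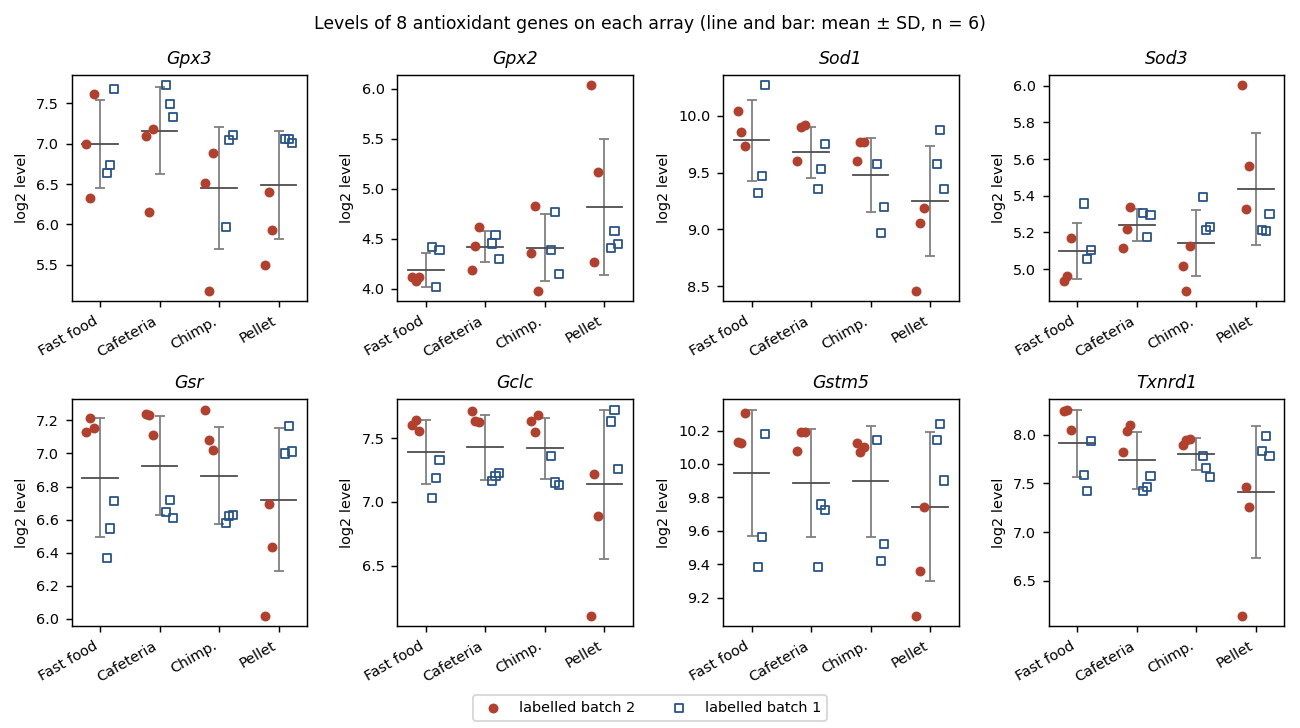
Log2 level of 8 genes on each of the 24 arrays by diet, with filled circles for labelled batch 2, open squares for labelled batch 1, a line for the mean and a bar for the SD (n = 6). Gsr and Gclc separate the batches on fast food, cafeteria and chimpanzee diets, with all 9 arrays of batch 2 above all 9 of batch 1, and the pellet arrays run the other way; pellet batch 2 replicate 1 is the extreme pellet array in all 8 genes.

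The comparisons of the 3 foods with pellets share the same 6 pellet arrays. Relative to pellets, all features together were shifted, with a median of 0.16 log2 for fast food, 0.12 for cafeteria food and 0.14 for the chimpanzee diet. The 33 genes had medians of 0.16, 0.14 and 0.14 in the same order, which were −0.003, 0.03 and 0.02 once each array was centred on its median. The direction depends on how the arrays are weighted. With array weights the 3 arrays of labelled pellet batch 2 counted with 0.02, 0.14 and 0.10, against 1.16 to 3.73 for labelled pellet batch 1 and 0.45 to 2.69 for the other 18 arrays. The medians of the 33 genes then were −0.14 for fast food, −0.13 for cafeteria food and −0.15 for the chimpanzee diet, beside −0.06, −0.09 and −0.10 over all features. The sign was opposite to that with equal weights for 23, 25 and 28 of the 33 genes in the same order. None of the 33 genes passed with equal weights in any of the 3 comparisons, in which 0.0361%, 0% and 0.00723% of all features passed. At an unadjusted p under 0.05, 7 of 33 were counted on fast food, against 21.5% of all features, 2 of 33 on the cafeteria diet, against 5.47%, and 1 of 33 on the chimpanzee diet, against 9.73%. The methods' two-way analysis called 0 in each. It had first removed 17 of the 33 for an interaction on fast food, 23 on cafeteria food and 21 on the chimpanzee diet. Among those removed, Txn2 had a diet p under the limit of 0.01 on fast food (0.0090) and on cafeteria food (0.0044). The 2 genes on the cafeteria diet were Gpx3, given above, and Sod1, and the 1 gene on the chimpanzee diet was Sod3.

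The 7 genes between fast food and pellets were Gpx2, Sod1, Sod3, Cat, Txn2, Txnrd1 and Nfe2l2. Gpx2 had log2 levels of 4.02, 4.12 and 4.42 (lowest, median and highest) on fast food, against 4.27, 4.51 and 6.04 on pellets. The groups overlapped, and the highest pellet value was from pellet batch 2 replicate 1. The difference was −0.63 ± 0.22 log2 (SE, adjusted p = 0.23), with −1.05 within labelled batch 2 and −0.20 within labelled batch 1, and it was −0.38 without that array and −0.32 with array weights.

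Sod1, the cytosolic copper and zinc superoxide dismutase, had log2 levels of 9.32, 9.79 and 10.27 on fast food, against 8.46, 9.27 and 9.87 on pellets. The groups overlapped, and the difference was 0.53 ± 0.20 (SE, adjusted p = 0.23). Within labelled batches 2 and 1 it was 0.98 and 0.09, without pellet batch 2 replicate 1 it was 0.36, and with array weights it was 0.10. The probe set read for Sod1 can also bind related transcripts by its design, and of 4 others of the gene, 3 gave 0.16 to 0.74 and the dimmest gave −0.10. Cafeteria food differed from pellets in Sod1 by 0.43 (adjusted p = 0.59), with 0.91 and −0.06 within labelled batches 2 and 1 and 0.08 with array weights.

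Sod3, the extracellular superoxide dismutase, had log2 levels of 4.94, 5.08 and 5.36 on fast food, against 5.21, 5.32 and 6.01 on pellets. The groups overlapped, and the difference was −0.34 ± 0.12 (SE, adjusted p = 0.23). Within labelled batches 2 and 1 it was −0.61 and −0.07, without pellet batch 2 replicate 1 it was −0.22, and with array weights it was −0.15. The chimpanzee diet differed from pellets in Sod3 by −0.29 (adjusted p = 0.45), with −0.63 within labelled batch 2, 0.04 within labelled batch 1 and −0.10 with array weights.

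The other 4 of the 7 differed in labelled batch 2 and were at or beyond zero in labelled batch 1. Cat, the catalase of peroxisomes, differed by 0.55 log2 (1.16 and −0.06 within labelled batches 2 and 1), and Nfe2l2 by 0.43 (0.93 and −0.08). Txnrd1, which reduces thioredoxin with NADPH in the cytosol, differed by 0.50 (1.22 and −0.22). Txn2, the mitochondrial thioredoxin, differed by −0.31 (−0.61 and −0.01). With array weights Txnrd1 turned to −0.14, and Cat, Nfe2l2 and Txn2 were at 0.06, 0.04 and −0.07. The 2 other probe sets of Txnrd1 gave −0.22 and −0.32. All 4 had an adjusted p of 0.23, and all 7 moved closer to zero without pellet batch 2 replicate 1. When the batch labels of the pellet arrays were exchanged, Gpx2, Sod1, Sod3, Txn2, Txnrd1 and Nfe2l2 passed between fast food and pellets (adjusted p = 0.040 to 0.049), 3 higher and 3 lower on fast food, beside 12.3% of all features. Which labels are right was not tested.

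**Figure D2:**
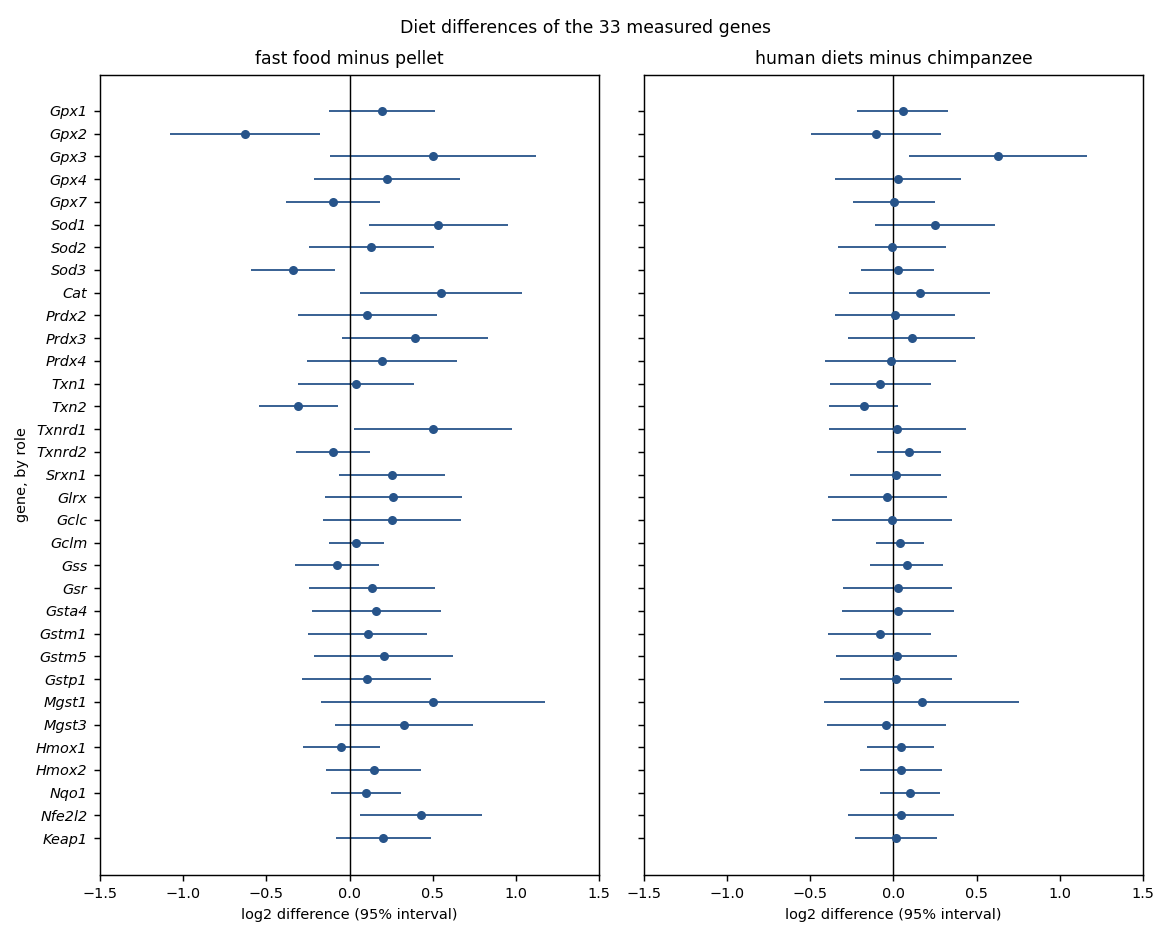
Log2 difference (point) and 95% interval (line) of the 33 genes with equal array weights, ordered by role, for fast food minus pellet on the left and human diets minus chimpanzee on the right. Most intervals include zero in both panels, and no gene passed after adjustment over all features; Gpx3 is the 1 gene whose interval leaves out zero on the right, and 7 genes do so on the left.

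By role, the members ranged as follows with equal weights. In human diets minus chimpanzee, the 4 genes of glutathione synthesis and recycling lay between −0.01 and 0.08 log2, and in fast food minus pellets between −0.08 and 0.26. Gclc and Gclm, the catalytic and the modifier subunit of the rate-limiting ligase, were at −0.01 and 0.04 in the first of these comparisons. The 5 peroxidases lay between −0.11 and 0.63 in the first and between −0.63 and 0.50 in the second, and the 4 genes of superoxide dismutases and catalase between −0.01 and 0.25 and between −0.34 and 0.55. The 6 transferases, of which Mgst1 is a membrane-bound form, lay between −0.08 and 0.17 in the first and between 0.10 and 0.50 in the second, and with array weights all 6 were negative in the second, between −0.33 and −0.01. The 9 peroxiredoxin and thioredoxin genes, with Srxn1, which repairs overoxidised peroxiredoxins, lay between −0.18 and 0.11 in the first and between −0.31 and 0.50 in the second. The 5 heme oxygenase, quinone reductase and regulator genes lay between 0.01 and 0.10 in the first and between −0.05 and 0.43 in the second. Between fast food and cafeteria diets, and between cafeteria or fast food and chimpanzee diets, 0 of the 33 passed as well, beside 0% of all features in each. At an unadjusted p under 0.05, 0 of 33 were counted between fast food and cafeteria diets (0.658% of all features) and between fast food and chimpanzee diets (1.82%), and 1, Gpx3, between cafeteria and chimpanzee diets (1.42%). The methods' two-way analysis called 0 in all 3.

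Of 94 further genes of the pathway that were listed, 76 were measured. They comprised other glutathione enzymes and transporters (20 of 32 measured), other thioredoxin, glutaredoxin and methionine sulfoxide enzymes (20 of 22), enzymes that supply NADPH (13 of 14) and other NRF2 pathway, iron and metal-binding genes (23 of 26). None passed in any comparison between diets. In human diets minus chimpanzee the medians of these 4 lists were −0.05, −0.02, −0.0001 and 0.01 log2, beside 0.01 for all features.

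The labelled batches were compared on the fast food, cafeteria and chimpanzee diets, with 9 arrays per batch and diet as a term. Of the 33 genes, 18 passed, 16 with higher and 2 with lower log2 levels in batch 2, beside 49.7% of all features (40.3% higher and 9.46% lower). The median of the 33 was 0.18 and that of all features 0.14. The direction depends on the scaling. With the same arrays quantile normalized again, 11 passed, 3 higher and 8 lower, beside 40.5% of all features. After centring each array on its median 15 passed, 9 higher and 6 lower. The share of all features after centring is not given here, so that this split does not set the 33 genes apart.

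The largest difference was in glutathione recycling. Gsr, glutathione reductase, had log2 levels of 7.02, 7.15 and 7.26 (lowest, median and highest of 9) in batch 2, against 6.37, 6.62 and 6.72 in batch 1, so that the batches did not overlap. The difference was 0.56 ± 0.06 (SE, adjusted p = 1.0e-06), and it was 0.62 in fast food mice, 0.54 in cafeteria mice and 0.51 in chimpanzee-diet mice. A second probe set of Gsr gave 0.13. Gclc had levels of 7.55, 7.63 and 7.71 in batch 2, against 7.03, 7.19 and 7.36 in batch 1, again without overlap. The difference was 0.43 ± 0.06 (SE, adjusted p = 8.3e-06), and a second probe set gave 0.24.

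Gsr and Gclc were the only genes of the 33 with all 9 arrays of batch 2 above all 9 of batch 1, a separation that 4.77% of all features showed. Both also passed as higher after quantile normalization, by 0.38 (adjusted p = 6.6e-05) and 0.21 (adjusted p = 0.00058). Gss, glutathione synthetase, fell in batch 2, with a difference of −0.23 ± 0.07 log2 (SE, adjusted p = 0.0090), and after quantile normalization the difference was again −0.23. A second probe set of Gss gave −0.64. Gclm did not pass in the deposited values (−0.13, adjusted p = 0.076) and passed as lower after quantile normalization (−0.32), although a second probe set of Gclm gave 0.50. In the deposited values the probe set read for Gclm passed as lower without cafeteria batch 2 replicate 1 (−0.15, adjusted p = 0.049) and without chimpanzee batch 2 replicate 3 (−0.16, adjusted p = 0.033).

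Since an equal shift of both subunits cancels within an array, the level of the Gclc probe set minus that of the Gclm probe set was also taken on each array. This difference had a lowest, median and highest value of 0.48, 0.66 and 0.72 log2 in batch 2, against −0.15, 0.00 and 0.25 in batch 1, on the 3 diets other than pellets. The batches did not overlap. On pellets the 3 values were −0.85, −0.21 and 0.40 in labelled batch 2, against 0.14, 0.68 and 0.69 in labelled batch 1. The values describe these 2 probe sets and carry no test, and the second Gclm probe set itself gave 0.50 between the batches. Gclc alone already separated the batches, so that the lack of overlap is not a further result. Of the other pairs taken, Gsr minus Gss did not overlap either (2.25 to 2.53 against 1.38 to 1.81). Gsr alone already separated the batches and Gss was lower in batch 2, so that this too is not a further result. Txnrd1 minus Txn1 overlapped (−1.71 to −0.93 against −1.89 to −1.22).

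In the thioredoxin system 5 of 9 genes passed for batch. Txnrd1 had log2 levels of 7.82, 8.03 and 8.26 in batch 2, against 7.42, 7.57 and 7.93 in batch 1, a difference of 0.43 ± 0.07 (SE, adjusted p = 8.7e-05). The batches overlapped, and after quantile normalization the difference was 0.18 (adjusted p = 0.025). Its 2 other probe sets gave −0.57 and −0.09, so that the direction is that of 1 probe set and not of the gene. Prdx3, a mitochondrial peroxiredoxin, Prdx2 and Glrx, a glutaredoxin that removes glutathione from proteins, had differences of 0.40, 0.32 and 0.34, and a second probe set of Glrx gave 0.58. Of these 3, Prdx2 was lower after quantile normalization (−0.14, adjusted p = 0.042) and the other 2 no longer passed. Txn2 fell in batch 2, with a difference of −0.22 (adjusted p = 0.013) and of −0.56 after quantile normalization, while its 2 other probe sets gave −0.15 and −0.02.

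Of the 6 transferases, 5 passed with higher levels in batch 2. Gstm5, a transferase of the mu class, had log2 levels of 10.07, 10.13 and 10.31 in batch 2, against 9.38, 9.57 and 10.18 in batch 1. The difference was 0.47 ± 0.10 (SE, adjusted p = 0.00076), but it was 0.02 after quantile normalization (adjusted p = 0.78). Gstp1 differed by 0.35 in the deposited values and by −0.13 after quantile normalization, and passed in both with opposite signs. Gsta4, Gstm1 and Mgst3, the other 3, differed by 0.25 to 0.40 and did not pass after quantile normalization. The call of Gsta4 was lost without any 1 of 7 arrays, with the highest adjusted p, 0.063, without cafeteria batch 1 replicate 1 (difference 0.21). That of Gstm1 was lost without any 1 of 9, with the highest, 0.076, without fast food batch 1 replicate 1 (0.22).

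Of the superoxide dismutases and catalase, Sod1, Sod2, the mitochondrial manganese enzyme, and Cat passed with differences of 0.31, 0.30 and 0.26 log2. None of these 3 did after quantile normalization. Sod3 did not pass in the deposited values (−0.15, adjusted p = 0.063) and passed as lower after quantile normalization. In the deposited values it also passed as lower without any 1 of 3 arrays. Of the 4 other probe sets of Sod1, 1 gave 0.12 and 3 gave −0.17 to −0.01. Of 5 glutathione peroxidases Gpx4 passed (0.39, adjusted p = 0.011). After quantile normalization Gpx4 was at −0.07 and did not pass, while 1 other of the 5 passed as lower. In the deposited values with 1 array left out, 2 of the 5 passed in some cases. Gpx1, the cytosolic form, passed without fast food batch 1 replicate 3 (0.22, adjusted p = 0.029) or chimpanzee batch 1 replicate 1 (0.20, adjusted p = 0.043). Gpx7 passed as lower without fast food batch 2 replicate 2 (−0.21, adjusted p = 0.046). Gpx3 differed by −0.42 ± 0.23 (SE, adjusted p = 0.14), with levels of 5.18, 6.88 and 7.61 in batch 2 and of 5.97, 7.11 and 7.73 in batch 1. This value was −0.27 without chimpanzee batch 2 replicate 2. Of the 5 heme oxygenase, quinone reductase and regulator genes, Nfe2l2 passed (0.24, adjusted p = 0.041), and Keap1, at 0.14, did not. Without chimpanzee batch 1 replicate 1, 4 of the 5 passed, with Keap1 at 0.19 (adjusted p = 0.020), Hmox2, the constitutive heme oxygenase, at 0.23 (adjusted p = 0.034) and Hmox1 at −0.17 (adjusted p = 0.038). Hmox1 passed without any 1 of 4 arrays and Hmox2 without any 1 of 2. The call of Sod1 was lost without any 1 of 6 arrays, and that of Nfe2l2 without any 1 of 12. The adjusted p was highest without chimpanzee batch 1 replicate 2 for Sod1 (0.25, adjusted p = 0.064) and without cafeteria batch 1 replicate 1 for Nfe2l2 (0.20, adjusted p = 0.092).

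Of the 7 genes with an antioxidant response core in the window that were measured, 4 passed for batch in the deposited values (Gstm5, Nfe2l2, Sod1 and Txnrd1) and 2 after quantile normalization, Txnrd1 as higher and Gclm as lower, beside 49.7% and 40.5% of all features. Gsr and Gclc, the genes that separated the batches, are among the 6 without a window and were not searched.

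**Figure D3:**
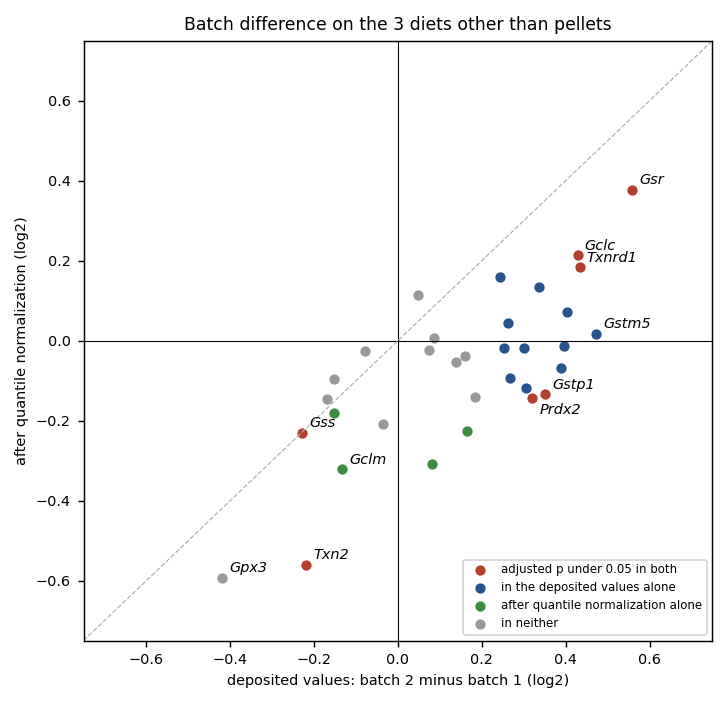
Difference between batch 2 and batch 1 of the 33 genes on the 3 diets other than pellets, in the deposited log2 values (horizontal) and after quantile normalization of the 24 arrays (vertical), coloured by whether the adjusted p was under 0.05; the dashed line marks equal values. Gsr, Gclc and Txnrd1 passed as higher on both axes, and Gstp1 and Prdx2 change sign.

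Other values moved with the batch. Of the cell type markers, 8 of 8 of neurons, 7 of 9 of astrocytes and 6 of 7 of oligodendrocytes passed as higher in batch 2, with medians of 0.67, 0.63 and 0.70 log2. Choroid plexus had 3 of 5 (median 0.44) and endothelium 2 of 4 (0.20). Microglia had 2 of 7 (0.11) and meninges 1 of 5 (0.07), beside a median of 0.14 for all features. The summed signal of the neuron markers was 13.81 to 14.19 log2 in batch 2, against 12.96 to 14.02 in batch 1. After quantile normalization 5 of 8 neuron, 2 of 9 astrocyte and 4 of 7 oligodendrocyte markers passed as higher. Of the microglia markers, 1 of 7 then passed as higher and 2 as lower. The spread of the values (SD) was 2.01 to 2.06 in batch 2, against 1.81 to 2.02 in batch 1. The part of cell types, array spread and ribosomal RNA in the differences of the 33 genes was not tested.

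Of the 76 further pathway genes, 32 passed for batch in the deposited values, 29 higher and 3 lower, a share of 42.1% beside 49.7% of all features. The largest difference among the other glutathione genes was that of Glo1, which clears methylglyoxal with glutathione as a cofactor, at 0.76 ± 0.08 log2 (SE, adjusted p = 1.0e-06), and it was 0.46 after quantile normalization. Slc1a1, a transporter of glutamate and cysteine in neurons, differed by 0.51 and, after quantile normalization, by 0.21. Gstm3, a transferase of the mu class, was at −0.35 and −0.31, and passed in both. Of 13 genes that supply NADPH, of which Aldh1l1 is also among the astrocyte markers, 8 passed as higher in the deposited values, among them Tkt and Taldo1 of the pentose phosphate pathway at 0.40 and 0.38, whereas 0 passed as higher and 2 as lower after quantile normalization. Of 23 NRF2 pathway, iron and metal-binding genes, 10 passed as higher, and 6 of them also did so after quantile normalization, among them Cul3, a part of the ubiquitin ligase that acts with KEAP1, and Tfrc, the transferrin receptor, while 5 others passed as lower after quantile normalization.

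On pellets the labelled batches differed the other way. The difference between labelled batches 2 and 1 had a median over the 33 genes of −0.58 log2 on pellets, with a range of −1.28 to 0.68, against 0.21 in fast food mice, 0.21 in cafeteria mice and 0.26 in chimpanzee-diet mice. For 29 of the 33 genes the sign on pellets was opposite to that on the other 3 diets, beside 85.7% of all features. Gpx3, Prdx4, Txnrd2 and Gclm were the other 4. The pellet difference minus that of the other 3 diets passed for 29 of the 33, 6 higher and 23 lower, beside 69.3% of all features (13.7% higher and 55.6% lower). All features had a median of −0.55 in this contrast. The counts were 18 (7 higher and 11 lower) once the arrays were centred and 13 (9 higher and 4 lower) after quantile normalization. Without pellet batch 2 replicate 1 the count was 21. Shares of all features in these settings are not given here, so that the fall from 29 does not set the 33 genes apart.

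Gsr on pellets had log2 levels of 6.02, 6.69 and 6.43 in labelled batch 2, against 6.9995, 7.17 and 7.01 in labelled batch 1. Gclc had 6.11, 7.22 and 6.89, against 7.63, 7.72 and 7.26. All 3 arrays of labelled batch 2 lay below all 3 of labelled batch 1 in both genes. The same separation was seen on pellets in other antioxidant genes, among them Gpx1, Sod2, Prdx2, Hmox2 and Keap1, whereas Gpx4 and Mgst3 overlapped. The share of all features with it is not given here, so that it does not set Gsr and Gclc apart. Relative to the other 3 diets the labelled batch difference on pellets was −1.23 ± 0.16 (SE, adjusted p = 1.7e-05) for Gsr and −1.22 ± 0.21 (SE, adjusted p = 0.000145) for Gclc. Without pellet batch 2 replicate 1 these were −1.05 and −0.91, and both still passed. Txnrd1 and Gstm5 had values of −1.34 and −1.17, and after quantile normalization −0.63 and −0.07.

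**Figure D4:**
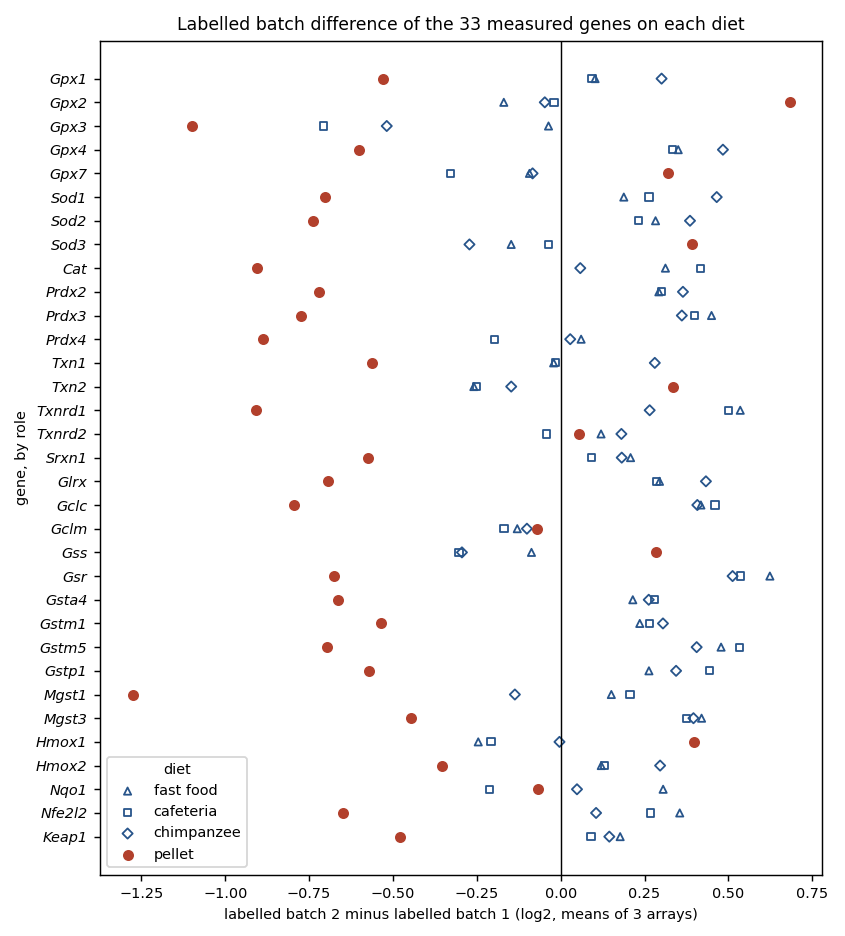
Labelled batch 2 minus labelled batch 1 (log2, means of 3 arrays each) for the 33 genes, ordered by role, with open symbols for fast food, cafeteria and chimpanzee diets and filled red circles for pellets. In 29 of the 33 genes the pellet value has the opposite sign to the difference over the other 3 diets.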

How the data were processed

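The values, log2 signals of 45101 probe sets on 24 arrays, were used as deposited; the authors had made them with RMA in affy, a step that includes quantile normalization. Left out were 64 control probe sets, those annotated to several genes and those whose mean over the arrays fell under the median of 4.07. The brightest probe set stood for each gene, which gave 13839 features, of which 11645 are genes. With limma 3.58.1 (R 4.3.3), diets were compared over all 24 arrays with batch as a term, batches on the 18 arrays other than pellets with diet as a term, and the pellet difference between means of diet and batch. P-values were adjusted by Benjamini and Hochberg over all features, and passed means under 0.05. The methods' two-way analysis was diet, batch and interaction, with features at an interaction p under 0.05 removed and diet at an unadjusted p under 0.01. The scripts were tested on simulated data. Gene names came from the platform annotation of 2016.

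The members and lists were chosen with earlier results of these data known. Genes are given in full by a rule: up to 3 per diet comparison with the largest difference at an unadjusted p under 0.05 and 1 sign in both batches, the 5 largest batch differences, and the 3 highest and 3 lowest mean levels. Any other gene was named with its values known. The arrays are of separate mice, and their number limits the precision. Plots used matplotlib 3.10.9 (Python 3.11.15). Alternatives covered the filter, the probe set, centring, array weights, the batch term, a replicate block, the arrays in the fit, the pellet labels and each array left out. Quantile normalization was repeated over the 24 arrays, an alternative chosen after seeing the data.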

Additional observations from a re-analysis of the deposited data

Results flagged for a closer look

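In 6 of 132 groups of 6 arrays (33 genes on 4 diets), 1 array lay far from the other 5, and chance gives about 1 in 20 such groups. In 4 of these 6 it was pellet batch 2 replicate 1, which was low. Cat was at 5.66 log2 there and at 7.07 to 7.71 in the other 5 pellet arrays, and Prdx3 was at 7.11, with the others at 8.23 to 8.77. Prdx4, a peroxiredoxin of the endoplasmic reticulum, was at 5.46, with the others at 6.77 to 7.31, and Glrx was at 6.02, with the others at 7.08 to 7.45. In cafeteria batch 1 replicate 1, Glrx was at 6.68, with the other cafeteria arrays at 7.22 to 7.48, and Nfe2l2 was at 5.18, with the others at 5.54 to 5.74.

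The labelled batch difference on pellets differed from that on the other 3 diets in 29 of 33 genes, beside 69.3% of all features. The contrast was −1.23 log2 for Gsr, −1.17 for Gstm5, −1.34 for Txnrd1 and −1.22 for Gclc.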

How the results depend on the processing

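Every comparison between diets that leaves out pellets had 0 of the 33 genes past the threshold under all alternatives. Against pellets, array weights gave 2 genes on the chimpanzee diet (Gsr at −0.38 and Gstm5 at −0.37), 3 on the cafeteria diet (Sod2 at −0.37, Gsr at −0.33 and Hmox1 at 0.24), 1 on fast food (Gsr at −0.40) and 1 over the 4 diets (Gsr), beside 12.2%, 14.4%, 2.54% and 7.05% of all features. With equal weights, Gsr was at 0.14, 0.21 and 0.13 on the chimpanzee, cafeteria and fast food diets, Gstm5 at 0.15, Sod2 at 0.03 and Hmox1 at 0.02, so that all of these except Hmox1 changed sign. Labelled batch 2 alone gave 23, 18, 25 and 17, beside 53.0%, 50.4%, 58.7% and 43.2% of all features, and labelled batch 1 alone gave 0 in each. Exchanged pellet batch labels gave 6 on fast food and 0 on the other diets. With each array left out in turn the counts stayed at 0 for diets. For batch they ran from 14 to 23 and for the pellet contrast from 21 to 29, and the shares of all features in these fits are not given here. With the replicate block in place of the batch term the count was 0 in each diet comparison. Arrays of 1 number did not deviate together more than others (median r of −0.02 for the same number and −0.02 for other numbers). The single values of r ran from −0.51 to 0.48 and from −0.61 to 0.61. No pairing by number was seen, and these values cannot exclude one.

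The batch count of 18 became 11 after quantile normalization, 8, 3 and 0 on the cafeteria, fast food and chimpanzee diets alone, with 3 arrays a batch, and 0 with all 24 arrays as labelled. The pellet contrast of 29 became 18 after centring and 13 after quantile normalization, for which the share of all features is not given here. The cause was not tested. Of the genes named, Sod1 was at −0.10 between fast food and pellets by its dimmest probe set, Cat, Nfe2l2 and Txnrd1 at −0.06, −0.075 and −0.22 within labelled batch 1, Nfe2l2 at −0.061 by another probe set and Txnrd1 at −0.22 and −0.32 by 2 others and at −0.14 with array weights, Txnrd1 was at −0.57 and −0.089 for batch by its other probe sets, and Gstm5 fell to 0.02 for batch after quantile normalization.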
